A study of Zea mays with 54 samples.

Results

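Roots of the maize (Zea mays) genotype SM1 were compared between low phosphate (low P) and high phosphate (high P) supply, using the 6 libraries that the labels assign to SM1, 3 at each P level, out of 54 in the series. The series holds 9 genotypes at both P levels. SM1 shares its count table of 36 libraries with EP1, F142, F160, F2 and SF1, each with 3 high P and 3 low P root libraries, and these 5 genotypes are the reference for what is found in SM1 and not elsewhere. The groups differ by the genotype and the P level named in the labels. The labels give no P concentration, plant age or culture medium. Nor do they state if replicates came from separate plants, so p-values speak of the spread between these libraries alone, and that spread may be technical.

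Plants short of phosphate switch on a regulated programme in which PHR-type transcription factors, held back by SPX proteins when phosphate is plentiful, activate genes for phosphate uptake, phosphate release and phosphate saving. Its known outputs include PHT1 phosphate transporters, purple acid phosphatases, enzymes that replace phospholipids with sulfolipids and galactolipids, and the non-coding RNAs and microRNA399 that act on the ubiquitin-conjugating enzyme PHO2. In roots this programme is accompanied by changes in growth, exudation and symbiosis genes. The sources used here pair none of the nuclear gene identifiers with a name, so genes could not be assigned to these roles, and the response is described by its size, direction and distribution over genotypes. For the same reason the root identity of the tissue could not be checked with marker genes.

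Library totals ran from 17241510 to 25541701 counts. The 3 low P libraries lay close together, with a mean correlation to their mates of 0.976 to 0.982 in log2 CPM, where CPM are counts scaled to a common library total with TMM factors, against 0.958 in high P replicate 1 and 0.973 in both other high P libraries. High P replicate 1 stood apart from its mates: the second principal component, with 13.5% of the variance, placed it at 56.6 and its mates at -33.7 and -38.3, while the first component, with 73.8%, separated low P from high P. In this library 97 genes were at 5 CPM or more and over 8 times the level in both mates, with a median of 53.6 CPM against 1.78 and 1.97 CPM in the mates and 1.53 to 1.69 CPM in the low P libraries. These genes took 1.78% of its counts and 0.110% and 0.103% of those of its mates. The main counts, the count at 16-fold or more and several falls in which it stood far above its mates are given with and without it.

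Low P moved genes of SM1 roots in both directions, in similar numbers, with more rises than falls among the largest changes. Of 24921 genes tested, 4294 were higher at low P (17.2% of those tested) and 3882 were lower (15.6%), so 8176 (32.8%) were called by edgeR's quasi-likelihood test at a Benjamini-Hochberg adjusted p of 0.05. The call count was 4738 without low P replicate 2. When libraries were scaled by their total counts, which moved the median log2 fold change of all tested genes from -0.0155 to -0.110, the split became 3238 higher and 4695 lower. Changes are given below relative to TMM scaling.

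Most called changes were modest in size. The log2 fold changes had quartiles of 0.72 and 1.94 among genes called higher and of -1.56 and -0.66 among genes called lower. At 2-fold or more, 2535 genes were higher (10.2%) and 1945 lower (7.8%). Under scaling by total counts that split turned, to 2177 higher and 2293 lower. At 16-fold or more there were 208 rises and 75 falls. Without high P replicate 1 these were 219 rises and 56 falls, and under scaling by total counts 194 and 82.

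**Figure D1:**
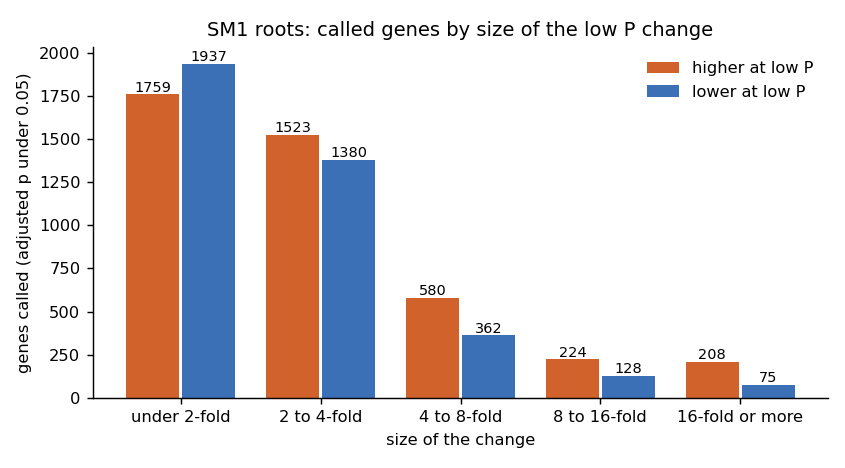
Number of SM1 genes called by edgeR's quasi-likelihood test (y axis) in 5 classes of fold change (x axis), orange for higher and blue for lower at low P. Falls outnumber rises under 2-fold, 1937 against 1759, and rises outnumber falls in every larger class, reaching 208 against 75 at 16-fold or more, whereas under scaling by total counts falls lead in the 2 to 4-fold class, 1661 against 1258.

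A change was termed strong when the gene was called, changed by 4-fold or more and showed no overlap between the 3 low P and the 3 high P libraries. Groups that did not overlap, whatever the size of the change, made up 26.5% of tested genes on the higher side and 25.9% on the lower side. There were 1010 strong rises (4.05% of tested genes) and 561 strong falls (2.25%), 6.3% together. Strong rises had a median log2 fold change of 2.79 (quartiles 2.34 and 3.69), and strong falls one of -2.70 (quartiles -3.36 and -2.26). On the authors' FPKM scale, which divides by gene length, the median gene among the strong rises went from a level of 1.33 to 11.1, and the median gene among the strong falls from 10.3 to 1.33, beside 7.37 and 6.93 for all tested genes. The strong rises together took 0.600% to 1.03% of the counts of the high P libraries and 6.65% to 7.33% of those of the low P libraries. The strong falls took 2.06% to 2.96% at high P and 0.285% to 0.412% at low P. Without high P replicate 1 there were 1023 strong rises, 891 of them among the 1010, and 505 strong falls, 439 of them among the 561, and 0 genes changed direction.

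Ranks by fold change were taken over the strong changes with a mean of at least 5 CPM in the higher group. The largest rise was that of Zm00001d029085. It was at 0 CPM in each of the 3 high P libraries and at 59.3, 34.9 and 34.3 CPM in the low P libraries. The groups did not overlap, and the low P mean of 42.9 ± 14.2 CPM (SD, n = 3) was at least 965-fold higher than the limit of 0.0444 CPM that 3 counts over the high P group allow, a limit that covers counting error only. Its fitted log2 fold change of 12.80 (SE 0.63, adjusted p = 0.000523 by edgeR's quasi-likelihood test) depends on the prior count and is no bound. In the own fits of F142, F160, F2 and SF1 the gene was also called higher. In EP1 it reached 0.541, 0.421 and 0.402 CPM at low P, and in the other 4 genotypes 40.9 to 127 CPM. The difference between SM1 and EP1 did not pass in the joint model, in which a log ratio has no finite value here, as the gene had no counts at high P in either.

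The rises ranked 2 to 10 by fold change were called higher in all other 5 genotypes. The rise ranked 2 went from 0 CPM in every high P library to 17.9, 14.3 and 11.7 CPM, at least 329-fold higher. The rise ranked 3 had 0, 0.107 and 0.0492 CPM at high P and 101, 85.3 and 88.5 CPM at low P. The highest level within these 10 belonged to the rise ranked 6. Its high P libraries held 0.418, 1.71 and 0.689 CPM and its low P libraries 665, 758 and 708 CPM, a log2 fold change of 9.49 (SE 0.53). For each of these genes every low P library lay above every high P library.

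**Figure D2:**
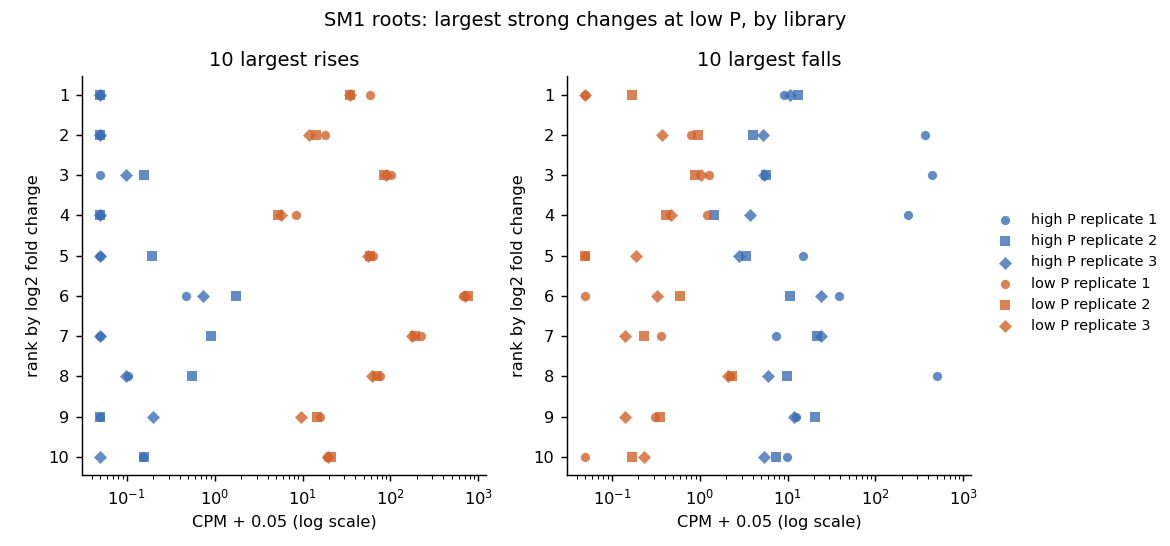
CPM plus 0.05 on a log axis (x) for the 10 largest strong rises (left) and 10 largest strong falls (right) in SM1 with a mean of at least 5 CPM in the higher group, ranked by log2 fold change (y), with 1 symbol per library. Rises run from at most 1.71 CPM at high P to between 5.20 and 758 CPM in every low P library, and in the falls ranked 2, 3, 4 and 8 the circle for high P replicate 1 lies at 236 to 502 CPM, far from the 1.43 to 9.70 CPM of its mates.

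Per length, several rises ended at high levels. The top low P level was 2852 FPKM, in a gene that went from 269, 351 and 272 CPM to 2680, 2713 and 2263 CPM. The second reached 2633 FPKM from 16.1 FPKM. Its libraries held 17.1, 31.2 and 11.9 CPM at high P and 3273, 3864 and 3487 CPM at low P, a log2 fold change of 7.46 (SE 0.47, adjusted p = 0.000252 by edgeR's quasi-likelihood test). All 10 of the highest-level rises had a low P level of at least 1242 FPKM, and 8 of them were called higher in all other 5 genotypes. The falls started from lower levels: the highest was 1175 FPKM at high P, in a gene with 638, 512 and 598 CPM at high P and 125, 179 and 110 CPM at low P.

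The largest fall was that of Zm00001d005892. It had 9.13, 13.1 and 10.5 CPM at high P and 0, 0.121 and 0 CPM at low P, so that every high P library lay far above every low P library. The low P group held 2 counts, both in replicate 2, so that counts per library total were 342 times higher at high P with an exact (Clopper-Pearson) 95% counting interval of 94.3 to 2827. The fitted log2 fold change was -8.05 (SE 0.60, adjusted p = 0.000405 by edgeR's quasi-likelihood test). It depends on those counts, being -10.88 without low P replicate 2 and -7.44 without low P replicate 3. The gene was also called lower in F160 and SF1, with log2 fold changes of -6.58 and -8.50. In EP1 it was not called at -1.41, and in F2 not called at 2.32.

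Several of the next falls rested on high P replicate 1. The fall ranked 2 had 367, 3.99 and 5.22 CPM at high P and 0.738, 0.907 and 0.325 CPM at low P. Its groups did not overlap, but its log2 fold change of -7.60 became -2.83 without that library. Of the 97 genes high in this library, 12 were strong falls, and all 12 remained called lower and 9 remained strong without it. Their log2 fold changes moved from between -7.60 and -3.81 to between -3.35 and -1.60. Falls that did not rest on it included the one ranked 9, with 12.5, 20.7 and 11.7 CPM at high P and 0.264, 0.302 and 0.0928 CPM at low P. Its log2 fold change was -6.10 (SE 0.43).

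Genes counted as switched on were under 0.1 CPM in each high P library and at 1 CPM or more in each low P library, with the reverse for genes switched off. Low P switched on 18 genes and switched off 3 in SM1, out of 46430 features listed. Every 1 of them was called by edgeR's quasi-likelihood test, which 32.8% of tested genes were. The rule demands a wide gap in the same libraries, so these calls were nearly fixed in advance and are no separate support. The 18 genes had low P means of 1.69 to 42.9 CPM with a median of 2.82 CPM, so most were low-level transcripts. In 8 of them no high P library held a count. The number moved to 42 without high P replicate 2 and to 29 without low P replicate 3. Leaving out a library removes a condition of the rule, so the number could only stay or rise.

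The 3 genes switched off were also of low level. The highest had 2.56, 1.50 and 4.23 CPM at high P and 0 CPM in every low P library, at least 52.5-fold lower. The second had 2.09, 2.17 and 2.46 CPM at high P and 0.0527, 0 and 0.0464 CPM at low P. The lowest had a mean of 1.52 CPM at high P and 0 CPM in every low P library. Leaving out a library gave 6 switched off without high P replicate 3, 7 without low P replicate 1, 8 without low P replicate 2 and 7 without low P replicate 3. Here too the number could only stay or rise.

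By the same thresholds, 10 of the 18 genes switched on in SM1 were switched on in 0 of the other 5 genotypes, 5 were in 1, 1 was in 3, 2 were in 4 and 0 were in all 5. SF1 shared 5 of them, EP1 4, F2 3, and F142 and F160 2 each. Of the genes off in SM1, SF1 and F2 shared 1 each, and EP1, F142 and F160 shared 0. Counted within their own libraries, the other genotypes switched on between 19 (F160 and F2) and 42 (SF1) genes and switched off between 8 (F160) and 29 (F142).

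Some genes switched on in SM1 by these thresholds also had counts or a response elsewhere without meeting them. A gene at 0, 0 and 0 CPM in SM1 at high P and 6.91, 3.51 and 3.11 CPM at low P went in EP1 from 0.793, 0.661 and 0.156 CPM to 45.2, 42.8 and 45.6 CPM, above the threshold for off at high P. In F142 the same gene stayed under 0.1 CPM in all 6 libraries. Another gene was under 0.1 CPM in every SM1 high P library but at 6.02, 5.67 and 5.93 CPM in SF1 at high P and 4.17, 3.50 and 4.21 CPM in SF1 at low P. Of the 18 genes, 5 differed in response from the mean of the other 5 genotypes by edgeR's test in the joint model. Over all genes in that model 23.9% did, so the count is not read as a trait of the switched genes. The test can give an adjusted p near 1 where groups have no counts.

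**Figure D3:**
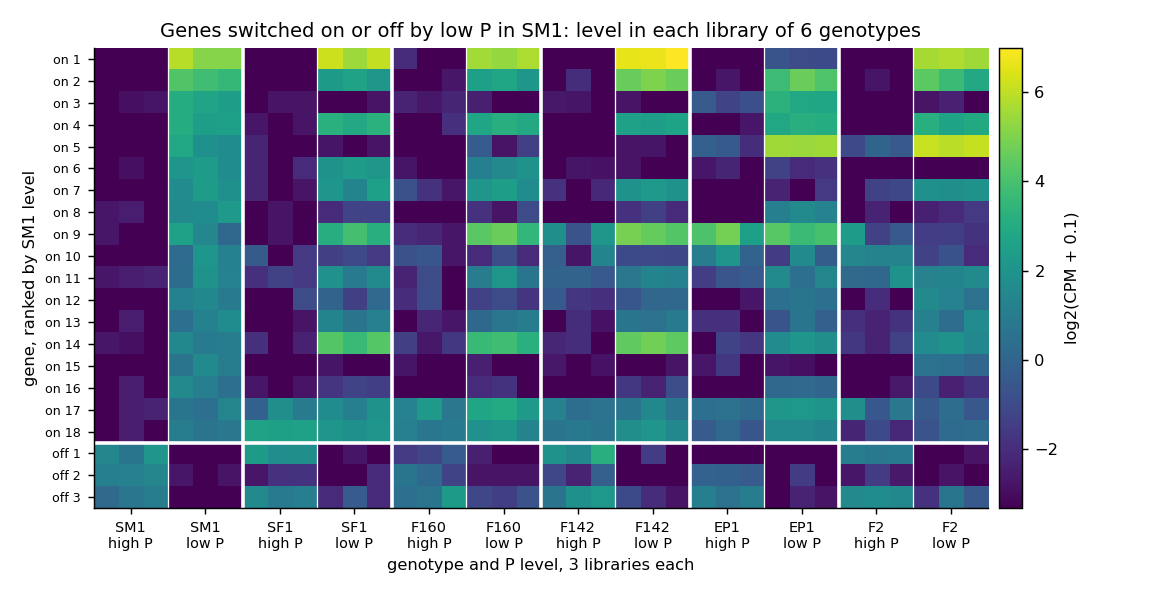
Level as log2(CPM + 0.1), given by colour, of the 18 genes switched on and 3 switched off in SM1 (rows, ranked by SM1 level) in each of 36 libraries (columns, 3 per genotype and P level). SM1 is dark at high P and bright at low P for the 18 genes by the rule that chose them, while the other 5 genotypes show the same switch for some rows, signal at both levels for others, and none at either level for a few.

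To see how far strong SM1 changes were shared, each of the other 5 genotypes was fitted in its own 6 libraries, so that no comparison shares control libraries with SM1. Of the 1010 strong SM1 rises, 426 (42.2%) were called higher in all 5 others, beside 4.86% of all tested genes, and 134 (13.3%) in none, beside 55.7%. Of the 561 strong falls, 60 (10.7%) were called lower in all 5 others, beside 1.60% of all tested genes, and 76 (13.5%) in none, beside 55.9%. Without high P replicate 1 the numbers called in all 5 were 412 rises and 56 falls. Strong changes that were not tested in a genotype count as not called there. These were 97 (F2) to 124 (SF1) of the rises and 72 (SF1) to 106 (F160) of the falls. The shares given below for single genotypes are over all strong changes, these included, while those over all of a genotype's tested genes hold none.

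**Figure D4:**
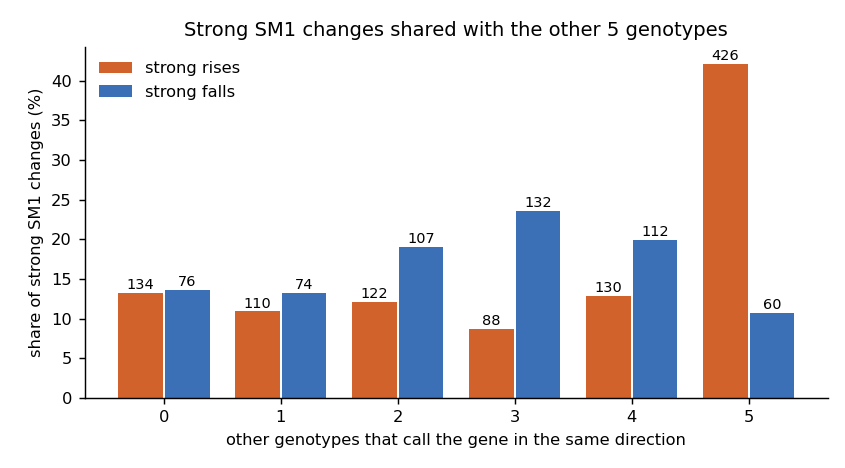
Share of the strong SM1 changes in % (y axis), with the number of genes above each bar, by the number of the other 5 genotypes in which the gene was called in the same direction (x axis), orange for rises and blue for falls. The tallest orange bar is that for all 5 genotypes with 426 rises, and the tallest blue bar is that for 3 genotypes with 132 falls.

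SF1 was the genotype whose response lay closest to that of SM1. It called 765 strong SM1 rises higher (75.7%, against 28.1% of all its tested genes) and 454 strong falls lower (80.9%, against 26.6%). The strong SM1 rises had a median log2 fold change of 2.36 in SF1, and the strong falls one of -2.61. Across 23523 genes tested in both, the log2 fold changes of SM1 and SF1 had a Pearson correlation of 0.802, beside 0.606 for F160, 0.603 for F142, 0.484 for EP1 and 0.469 for F2. These correlations run across genes, which are not independent replicates, and describe these libraries.

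The other 4 genotypes called 58.9% to 67.2% of the strong rises and 33.0% to 54.7% of the strong falls in the same direction. F142 called 679 of the strong rises higher (67.2%, against 25.7% of all tested genes), F160 622 (61.6%, against 13.2%), EP1 607 (60.1%, against 21.1%) and F2 595 (58.9%, against 16%). For the strong falls the counts were 307 in F142 (54.7%, against 24.3%), 250 in EP1 (44.6%, against 21.6%), 236 in F160 (42.1%, against 9.43%) and 185 in F2 (33.0%, against 14.2%). The median log2 fold change of the strong SM1 falls was -1.26 in F142, -1.20 in F160, -0.93 in EP1 and -0.69 in F2. No test of rises against falls was made.

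Some strong SM1 changes went the other way elsewhere. Of the strong rises, 131 were called lower in at least 1 other genotype, in EP1 for 80 (7.92%, against 21.6% of all its tested genes), F2 for 64 (6.34%, against 14.2%), F142 for 56 (5.54%, against 24.3%), SF1 for 8 (0.792%, against 26.6%) and F160 for 3 (0.297%, against 9.43%). Of the strong falls, 42 (7.49%) were called higher in at least 1 other. These were 20 in EP1 (3.57%, against 21.1%), 13 in F160 (2.32%, against 13.2%), 11 in F2 (1.96%, against 16%), 8 in F142 (1.43%, against 25.7%) and 0 in SF1 (against 28.1%). In every one of the 5 genotypes these shares lay below those of all tested genes, with untested strong changes counted as not called. Over all genes tested in SM1, 55.9% were called lower in none of the other 5, and 55.7% were called higher in none. Among the rises, 16 were called lower in EP1, F142 and F2 alike, and no strong fall was called higher in all of these. This combination was chosen after the values were seen, and its share over all tested genes was not counted.

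The gene of highest level among these 16 went from 11.6, 32.8 and 24.6 CPM in SM1 at high P to 116, 173 and 178 CPM at low P, a log2 fold change of 2.76 (SE 0.39, adjusted p = 0.00325 by edgeR's quasi-likelihood test). In their own fits its log2 fold change was -5.46 in EP1, -3.27 in F142 and -3.10 in F2. The SM1 response differed from each of these in the joint model, with adjusted p = 5.61e-05, 0.00115 and 0.00116 by edgeR's quasi-likelihood test. It did not pass against SF1 (adjusted p = 0.269) or F160 (adjusted p = 0.444), where the log2 fold changes were 0.31 and 1.34. The 16 genes were picked for opposite calls in EP1, F142 and F2, so a difference from those genotypes was nearly sure to pass. Of the strong rises called lower, 80 of 80 passed in EP1, 56 of 56 in F142 and 63 of 64 in F2. Another gene of the 16 had 0.313, 0.321 and 0.591 CPM at high P and 8.44, 11.4 and 9.42 CPM at low P in SM1, and its response differed from each of the other 5 genotypes, with adjusted p from 8.55e-11 (F2) to 0.000130 (F160) by the same test.

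In the joint model of all 36 libraries the SM1 response differed from the mean response of the other 5 genotypes in 6892 of 28834 genes (23.9%), 3579 of them in the higher and 3313 in the lower direction, by edgeR's quasi-likelihood test. Against single genotypes the count was 8545 for EP1 (29.6%), 8051 for F2 (27.9%), 6937 for F142 (24.1%), 6443 for F160 (22.3%) and 1742 for SF1 (6.04%). These comparisons all share the SM1 libraries. Among the strong SM1 changes, 441 rises (43.7%) and 253 falls (45.1%) differed from the mean of the others in the same direction. Over all genes in the joint model the shares were 12.4% in the higher and 11.5% in the lower direction. Strong changes were picked for a large SM1 response, which favours such a difference. From each of the 5, 73 rises and 18 falls differed, counts for which no share over all genes was taken.

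The 73 rises that exceeded each other genotype included genes of high level that also responded elsewhere. The second-ranked gene by FPKM above, with 3273 to 3864 CPM at low P, was among them. It was called higher in all other 5 genotypes too, with log2 fold changes of 0.78 in F2, 0.86 in EP1, 1.79 in F142, 3.11 in F160 and 3.67 in SF1 beside 7.46 in SM1. Across the 73, 14 were called higher in all 5 others, 38 in SF1 and 23 in none. Of all genes tested in SM1, 4.86% were called higher in all 5 others and 55.7% in none, and SF1 called 28.1% of its tested genes higher. A gene with 2.04, 2.75 and 2.71 CPM at high P and 85.9, 120 and 106 CPM at low P had a log2 fold change of 5.37 in SM1, 4.08 in SF1, 2.59 in F160, 0.07 in F142, -0.10 in F2 and -0.86 in EP1. Of the 18 falls, 10 were called lower in SF1, beside 26.6% of all its tested genes, and 0 in all 5 others, beside 1.60%.

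A strong change was counted as found in SM1 and not in the others when it differed from the mean of the other 5, differed from each of them in the same direction, and had a fitted change under 2-fold in each of them. This left 12 rises and 11 falls, 23 genes or 0.0923% of those tested, so few strong SM1 changes met the rule. A change under 2-fold can still be called. Only 8 of the 23 were called in the same direction in none of the own fits of the other 5. The rule thus marks a much smaller response elsewhere, and for the rest of the 23 not its absence. The tests against the other genotypes are part of the rule, so their p-values for these genes are no separate support. The 12 rises had log2 fold changes of 2.02 to 3.77 with a median of 2.24, and the 11 falls of -5.38 to -2.00 with a median of -2.16. The count was 13 without high P replicate 1 and 38 without high P replicate 2. It was 63 when SF1 was left out of the comparison. Within SM1 all 23 remained called in the same direction without high P replicate 1, and 17 of them at 4-fold or more.

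The largest of these rises with a low P mean of at least 5 CPM was that of Zm00001d050283, with 0.418, 0.356 and 0.836 CPM at high P and 4.43, 7.80 and 9.65 CPM at low P. No libraries overlapped between the groups, and the log2 fold change was 3.77 (SE 0.45, adjusted p = 0.00181 by edgeR's quasi-likelihood test). The response exceeded the mean of the other 5 by 3.40 on the log2 scale (SE 0.71, adjusted p = 0.00103), and the largest adjusted p against a single genotype was 0.027, for SF1. The other genotypes were higher at high P. On the scale of the joint model, group means went from 0.553 to 7.50 CPM in SM1, from 1.16 to 1.94 CPM in EP1, from 2.82 to 2.80 CPM in F142, from 2.42 to 4.29 CPM in F160, from 5.33 to 8.55 CPM in SF1 and from 12.3 to 9.96 CPM in F2. SM1 was thus the lowest of the 6 at high P, and at low P the third.

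Per length, the highest low P levels among the 12 rises were 512 and 450 FPKM. The gene at 450 FPKM had 22.1, 31.4 and 22.0 CPM at high P and 174, 259 and 225 CPM at low P, a log2 fold change of 3.12 (SE 0.22, adjusted p = 0.000343 by edgeR's quasi-likelihood test), against -0.10 to 0.96 in the other 5. The gene at 512 FPKM had 68.0, 134 and 152 CPM at high P and 730, 507 and 455 CPM at low P, a log2 fold change of 2.26. In 10 of the 12 rises SM1 had the lowest mean of the 6 genotypes at high P, and in 5 it had the highest at low P. The rule draws on these same means and favours a low SM1 level at high P, so the ranks are description only. They were not counted over all tested genes.

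Zm00001d042810 showed the largest of these falls with a mean of at least 5 CPM at high P. Its libraries held 18.4, 11.7 and 6.30 CPM at high P and 1.05, 1.27 and 1.76 CPM at low P, with no overlap. The log2 fold change was -3.14 (SE 0.44, adjusted p = 0.00326 by edgeR's quasi-likelihood test) and -2.72 without high P replicate 1, its highest library. It lay below the mean of the other 5 by -2.94 (SE 0.38, adjusted p = 2.89e-06). Group means in the joint model fell from 12.5 to 1.40 CPM in SM1, while in the other 5 they lay between 1.33 and 3.18 CPM at high P and between 1.12 and 2.48 CPM at low P. SM1 was therefore the highest at high P and within the range of the others at low P.

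Among the 11 falls SM1 had the highest mean of the 6 genotypes at high P in 8 of them and the lowest at low P in 6. Here too the rule favours such ranks, as it draws on the same means. A second fall of fair level had 66.3, 89.7 and 73.2 CPM at high P and 15.2, 17.0 and 14.0 CPM at low P, with a log2 fold change of -2.31 against -0.78 to -0.50 in the others. Another fall had 120, 50.2 and 55.0 CPM at high P and 18.9, 18.2 and 17.9 CPM at low P, and a log2 fold change of -2.04. High P replicate 1 was its highest library, at over 2 times its mates, and without it the log2 fold change was -1.52 (adjusted p = 0.000266 by edgeR's quasi-likelihood test).

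**Figure D5:**
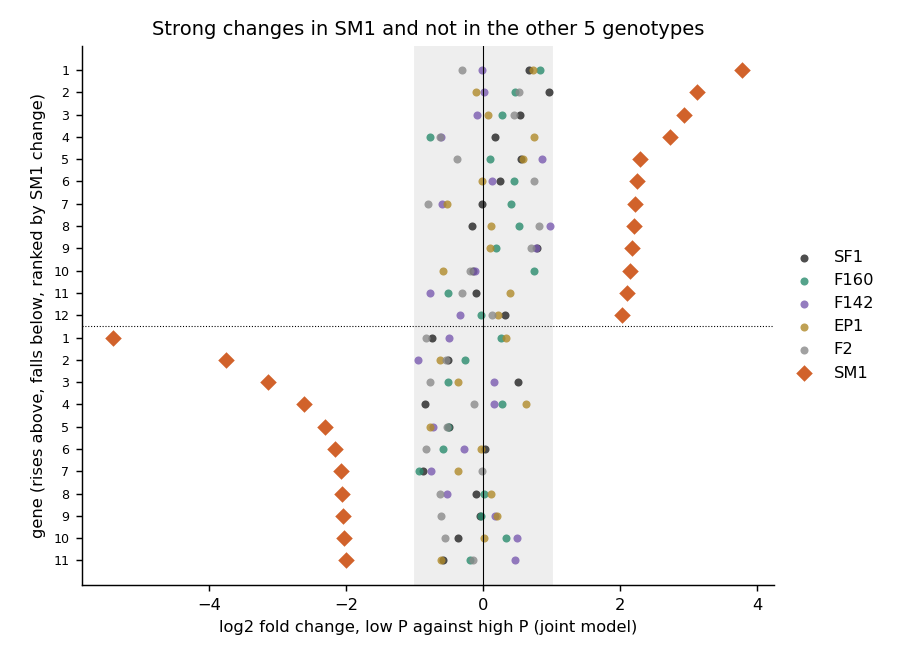
Joint-model log2 fold change of low P against high P (x axis) for the 12 rises (above the line) and 11 falls (below) that met the rule for SM1 and not the other 5 genotypes (y axis, ranked by the SM1 change), with diamonds for SM1 and circles for the others. The diamonds lie at 2.02 or above and at -2.00 or below, and the circles lie between -1 and 1, the shaded band that the rule fixes. A circle within the band can still be a called change in its own genotype.

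The rule could miss genes that had no counts in a group of another genotype, where a log ratio can have no finite value. Of the strong changes, 97 rises and 85 falls had such a group. Of these, 5 rises and 10 falls differed from the mean of the other 5 in the joint model, 65 rises and 58 falls had an adjusted p over 0.9 there by edgeR's quasi-likelihood test, and 0 met the rule. A gene was called silent in a genotype when it was under 0.1 CPM in all 6 of its libraries. This held in at least 1 other genotype for 62 strong rises (6.14%) and 59 strong falls (10.5%), beside 4.12% of all tested genes. In all 5 other genotypes it held for 5 strong rises and 8 strong falls, beside 114 of all genes tested in SM1.

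The SM1 falls silent in all 5 others included 2 of clear level. A gene with 38.3, 10.6 and 24.1 CPM at high P had 0, 0.544 and 0.278 CPM at low P, a log2 fold change of -6.48 (SE 0.80, adjusted p = 0.00212 by edgeR's quasi-likelihood test), and it had no count in any of the 30 other libraries. Another had 30.3, 36.2 and 30.3 CPM at high P and 6.17, 6.95 and 9.33 CPM at low P, against at most 0.0906 CPM elsewhere. The highest of the 5 rises went from 0.835, 1.32 and 1.03 CPM to 4.06, 5.44 and 8.03 CPM.

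On log2 CPM with a prior count of 2, where empty groups keep a finite value, limma's moderated test in the same joint model gave 68 genes by the rule for SM1 and not the others, in a fit added after the data were seen. Among the genes it added, the largest rise by fold change with a low P mean of 5 CPM or more had 0.261, 0.0356 and 0.148 CPM at high P and 21.2, 21.7 and 17.5 CPM at low P in SM1. Its response exceeded the mean of the other 5 by 7.16 on that log2 scale (adjusted p = 2.79e-12 by limma). It was among the 73 rises that exceeded each other genotype by edgeR's test, and its log2 fold change of -1.06 in F160 kept it outside the 2-fold limit of the rule there.

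Mitochondrial features carry identifiers that do match symbols. Of 18 tested, 5 were higher and 0 lower (beside 17.2% and 15.6% of all tested genes), and 13 did not pass. The transcript of ccmFN, a cytochrome c maturation factor, had 0.157, 0.214 and 0.148 CPM at high P and 0.580, 0.665 and 0.743 CPM at low P, a log2 fold change of 1.88 (SE 0.39, adjusted p = 0.0125 by edgeR's quasi-likelihood test). The open reading frame orf147-b had 0.418, 0.606 and 0.394 CPM at high P and 1.69, 1.27 and 1.49 CPM at low P, a log2 fold change of 1.62 (SE 0.32, adjusted p = 0.0107). Both lay apart between the groups but at under 2 CPM. F142 and SF1 also called orf147-b higher in their own fits, with log2 fold changes of 1.71 and 1.26.

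The mitochondrial small-subunit ribosomal RNA rrn18 had the highest level of these 5, with 54.4, 72.8 and 65.6 CPM at high P and 89.2, 114 and 101 CPM at low P. Its log2 fold change was 0.66 (SE 0.15, adjusted p = 0.0180 by edgeR's quasi-likelihood test) and did not pass under scaling by total counts (adjusted p = 0.0590), without high P replicate 3 (0.0546) or without low P replicate 2 (0.0657). Its response exceeded the mean of the other 5 genotypes by 0.64 (adjusted p = 0.0343). That difference did not pass without high P replicate 1 (adjusted p = 0.130), high P replicate 3 (0.0612), low P replicate 2 (0.127) or low P replicate 3 (0.0597).

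The transcript of cox3, a subunit of cytochrome c oxidase, had 1.20, 1.43 and 1.13 CPM at high P and 2.32, 2.30 and 2.09 CPM at low P. Its log2 fold change of 0.83 (adjusted p = 0.0386 by edgeR's quasi-likelihood test) was lost whichever of the 6 libraries was left out, with adjusted p of 0.0678 without high P replicate 2 to 0.121 without high P replicate 3, under scaling by total counts (0.0779), with no filter on low counts (0.0623) and with the replicate block (0.0913). It exceeded the mean of the other 5 genotypes by 1.18 (adjusted p = 0.0181), a difference that did not pass without high P replicate 3 (0.0522). The transcript of atp4, a subunit of ATP synthase, had 0.835, 0.677 and 0.590 CPM at high P and 1.58, 1.33 and 1.35 CPM at low P, a log2 fold change of 1.02 (adjusted p = 0.0351), which passed without high P replicate 1 (0.0421) and was lost when any of the other 5 libraries was left out, with adjusted p of 0.0699 to 0.117. It was also lost with no filter (0.0588), with the replicate block (0.0813) and with the spread of the joint model (0.0524).

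Of 66 tested features with ENSRNA identifiers, 14 were higher (21.2%, beside 17.2% of all tested genes) and 5 lower (7.58%, beside 15.6%). The 14 rises had log2 fold changes of 0.84 to 1.51, and 11 of them were over 1800 bases long. Other tested features over 1800 bases did not pass, for instance with adjusted p of 0.0610, 0.0863 and 0.164 by edgeR's quasi-likelihood test. The share of such lengths among the 66 was not counted, so no link with length is drawn. The highest had 3.44, 3.99 and 3.99 CPM at high P and 11.7, 8.64 and 10.7 CPM at low P. Features of near-identical length may be copies of one another, and reads that copies share cannot be assigned to a single copy. Their levels are therefore uncertain, as they are for overlapping genes and close paralogs among the nuclear genes. Plastid features had 1 to 34 counts per library in sum and 0 of 157 were tested, and the 154 listed microRNA genes had no counts.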

How the data were processed

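Root RNA of 9 maize genotypes at 2 P levels was extracted with a plant RNA kit and made into NEBNext Ultra libraries, per the labels' protocols. The authors deposited raw read counts per gene and, separately, FPKM values. Per the submitters' processing notes, fastp, HISAT2 and HTSeq were used with B73 RefGen_v4; their versions and the strand setting were not given in the sources used here, so overlapping and antisense genes cannot be told apart. The deposited FPKM equalled the deposited counts scaled by gene length and library total (1067424 of 1067424 values above 0 within a relative tolerance of 0.001). FPKM served to give levels and entered no test.

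Counts of the 6 SM1 libraries were fitted with edgeR's quasi-likelihood test (edgeR 4.0.16, limma 3.58.1, R 4.3.3) after TMM scaling and filterByExpr, which kept 24921 of 46430 features. P-values were adjusted by Benjamini-Hochberg over all tested features, at a threshold of 0.05. Each SE was taken as the size of the log2 fold change divided by the root of its F statistic, which is approximate. Differences in response came from a joint model of the table's 36 libraries, with 1 mean per genotype and P level. An exact permutation test of 3 against 3 libraries cannot go below 0.10, so calls draw on spread that is shared between genes (biological coefficient of variation 0.241). On simulated counts the SM1 fit recovered 17.3% of 2-fold and 85.6% of 4-fold changes with 11.5% false calls (24630 genes), the comparison with the mean of the others 45.5% and 73% with 4.07% false calls (28525 genes), and the rule for changes found in SM1 and not elsewhere 26% of 4-fold changes (24853 genes). The simulation changed 200 genes, against 8176 called here, and set its 4-fold changes at the rule's own limit of 4-fold. Recovery by the rule was limited by that setting, so these shares do not give the power in these data. The count by that rule is not taken as a measure of how many such genes exist. All replicate pairs differed by more than sampling noise (lowest chi-square per degree of freedom 12.3), so none was merged. A count of 0 allows 0.117 to 0.174 CPM per library at 3 counts.

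The members, rules and lists were chosen with earlier results of these data known. Nuclear identifiers matched 0 entries of the RefSeq gene table of another assembly (NAM-5.0), so 0 symbols of 15 gene lists, marker lists included, could be matched and no list was counted. By the naming rule at most 2 nuclear identifiers that rose and 2 that fell are printed (the largest strong changes, and the largest found in SM1 and not elsewhere, with a mean of at least 5 CPM), and other genes are given by values. Organelle features are named where called. Alternatives were RLE and total-count scaling, no filter, a replicate block, leaving out each library or SF1, DESeq2 1.42.0, a shared spread, other on and off limits and, added after seeing the data, limma's test on log2 CPM, and size classes and sharing without high P replicate 1. The 18 libraries of the other table were not used.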

Additional observations from a re-analysis of the deposited data

Results flagged for a closer look

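The SM1 response to low P differed from the mean response of the other 5 genotypes in 6892 genes by edgeR's quasi-likelihood test in the joint model, a test of the difference itself. Among named features, the difference between the SM1 response and that mean was 3.40 on the log2 scale in Zm00001d050283 (adjusted p = 0.00103) and -2.94 in Zm00001d042810 (adjusted p = 2.89e-06). It was 0.64 in rrn18 (adjusted p = 0.0343) and 1.18 in cox3 (adjusted p = 0.0181). In the other named mitochondrial features it did not pass by the same test, with adjusted p of 0.0617 in ccmFN, 0.102 in atp4 and 0.152 in orf147-b. Both nuclear genes passed under every alternative run for this difference, with highest adjusted p of 0.0072 and 0.000344 by edgeR's quasi-likelihood test. They were picked by a rule that required this same difference to pass, so these values are no separate support. For rrn18 and cox3, named without that requirement, the difference did not pass under some alternatives. Their adjusted p ran up to 0.130 and 0.0522 by the same test.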

How the results depend on the processing

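Over 192 recomputed values of single features, 164 kept their direction and side of the threshold, 25 lost the call, 3 gained it and 0 reversed. These values cover only the printed nuclear genes, picked as the largest changes, and the 5 mitochondrial features picked as called. The split is thus no measure for genes at large. All losses were in rrn18, cox3 and atp4. A difference that passed neither before nor after counts as kept. The counts of calls, of 2-fold and of strong changes stayed within 1.5 times under RLE and total-count scaling, no filter, DESeq2 (9569 calls) and the shared spread (12126 calls). The count of genes that differ from the mean of the other 5 did so under the first 3. Leaving out 1 library gave 4738 to 8293 calls, 3466 to 4331 of at least 2-fold, 1399 to 1749 strong changes, 5025 to 6373 genes that differ from the others, 13 to 38 genes found in SM1 and not elsewhere, 20 to 42 switched on and 3 to 8 switched off. The switched counts could not fall, as leaving out a library removes a condition of their rule. The count found in SM1 and not elsewhere was 63 without SF1, 68 with limma's test and 28 when the 2-fold limit was replaced by no call in the own fits, of which 8 are among the 23. Genes switched on numbered 8 when off meant a count of 0, 39 with off under 0.2 CPM and 4 with on at 5 CPM or more; genes switched off numbered 11 under the second and 0 under the third. The cause was not tested. Same-numbered high P and low P libraries did not deviate together (correlations of -0.116, -0.0751 and -0.00955), so the numbers are not taken as pairs. With the replicate block there were 5579 calls, 3690 of at least 2-fold, 1424 strong, 6051 that differ from the others and 20 found in SM1 and not elsewhere.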
